A study of Oryza sativa with 4 samples.

Results

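Gene expression in the palea of the rice mutant rep1 was set against that in the palea of the mutant Osmads32, gene by gene. Of 55986 genes in the table, the 20675 whose level averaged 1 FPKM or more across the 4 genotypes of the series were taken. FPKM counts fragments relative to transcript length and sequencing depth, so levels of different genes can be compared per length. The choice of genes used the mean level over the 4 libraries and not the difference between rep1 and Osmads32. That mean includes both compared libraries, so a gene can pass it through a high level in rep1 or Osmads32 alone.

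The palea is the inner of the 2 bracts that enclose the rice flower, facing the lemma, and it differs from the lemma in its cell layers and its margins. REP1 is a TCP transcription factor that shapes the palea. OsMADS32 encodes a MADS-box transcription factor of grasses that acts in floral patterning, and OsMADS6 an AGL6-like MADS-box factor of palea and inner floral organ identity. MADS-box proteins act in complexes of several members, while YABBY, TCP, KNOX, KANADI and HD-ZIP proteins set the polarity and growth of lateral organs.

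The series profiled paleas by bulk RNA sequencing of messenger RNA from plants grown in a paddy field. The rep1 sample is labelled a deletion mutant of a japonica background. The Osmads32 sample is labelled a T-DNA insertion mutant of the background AF36. A wild type japonica sample and an Osmads6 sample, a Tos17 retrotransposon insertion mutant of Nipponbare, complete the series and enter here through the mean that chose the genes and as further levels beside a few of them. Mutation and background cannot be told apart between rep1 and Osmads32, and the stage of the paleas is not given in the sources used here. In bulk tissue, fewer cells of a type and less RNA per cell cannot be told apart either.

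GEO lists 1 sample per genotype, and the table has 2 columns for each, which were treated as 2 runs of 1 sample. On this choice n = 1 per genotype, which allows no test, and every difference below lacks a replicate check. Reads recovered from the FPKM values summed to 38535993 and 36637312 in the runs of the library labelled rep1. In the library labelled Osmads32 they summed to 43196918 and 42597728. These sums take the smallest whole multiple for each gene and leave out 27 genes without one, among them PAL1. They are thus lower bounds on the reads of the runs. Between the runs of one library, 168 genes (0.813%) differed by at least 2-fold in rep1 and 128 (0.619%) in Osmads32. In the library labelled wild type 477 did (2.31%), and in the library labelled Osmads6 77 (0.372%). Single genes could part by more than counting error: OsMADS55 had 90 and 6 reads in the Osmads32 columns. What sets the 2 columns of a genotype apart was not tested. The defining markers of lemma and palea, OsMADS1, OsMADS14, OsMADS15, OsMADS6 and LSI6, were all at 1 FPKM or more in both libraries, and their summed level was 1200 FPKM in the library labelled rep1 and 865 FPKM in the library labelled Osmads32. Without OsMADS6 the sum was 358 FPKM in rep1 and 604 FPKM in Osmads32, and each of the other 4 markers stood lower in rep1.

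The mutated genes were examined first. OsMADS32 (LOC_Os01g52680, chromosome 1) stood at 3.11 and 2.44 FPKM in the runs of the library labelled rep1, against 8.69 and 7.95 FPKM in the library labelled Osmads32. Its transcript was thus 2.99-fold lower in rep1 than in its own labelled mutant, where it was also not below the 7.19 FPKM of the library labelled wild type. REP1 (LOC_Os09g24480, chromosome 9) gave 2 and 0 reads in the rep1 runs, against 2 and 4 reads in the Osmads32 runs, 2.75-fold lower in rep1 with 95% counting bounds of 0.477-fold and 27.0-fold. At this depth a difference in REP1 was not detectable, so the rep1 label stays unchecked by it. The position of these reads along each gene is not recorded in the values, and an insertion need not lower a transcript. OsMADS6 likewise stood at 127 FPKM in the library labelled Osmads6, against 13.5 FPKM in the library labelled wild type. In the libraries labelled rep1 and Osmads32 it stood at 842 and 262 FPKM, so wild type was the lowest of the 4. Because the OsMADS32 and OsMADS6 levels go against their labels, samples are named as the library labelled rep1, Osmads32, Osmads6 or wild type, and each direction rests on those labels. The locus IDs of OsMADS32 and REP1 come from published nomenclature and did not pass the check against RefSeq, where OsMADS32 was not matched and the symbol REP1 matched a gene of another chromosome, so the levels of both rest on those IDs.

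In the library labelled rep1, 1337 of the 20675 genes (6.47%) exceeded their level in the library labelled Osmads32 by 2-fold or more on the scale log2(FPKM + 1), and 1988 (9.62%) fell short of it by 2-fold or more, 16.1% in all. Calls use this scale, which shrinks the ratios of low genes, whereas the fold of a named gene is the plain ratio of its mean FPKM. Among the genes past 2-fold, 1331 higher (6.44% of the 20675) and 1985 lower ones (9.6%) also had runs that did not overlap between the libraries. Such runs were common over all measured genes. Those of rep1 lay wholly above those of Osmads32 in 6249 genes (30.2%) and wholly below in 9004 (43.6%). At 4-fold the counts were 313 higher (1.51%) and 420 lower (2.03%). Over all genes the log2 ratio had a median of -0.10, and 57.0% of genes had a negative ratio. Higher genes made up 40.2% of those past 2-fold, and 48.4% once each ratio was taken relative to that median. The excess of lower genes was absent among weakly expressed genes: of genes with a mean between 1 and 2 FPKM, 5.97% were higher and 5.89% lower, whereas of genes between 20 and 100 FPKM, 6.65% were higher and 12.4% lower.

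**Figure D1:**
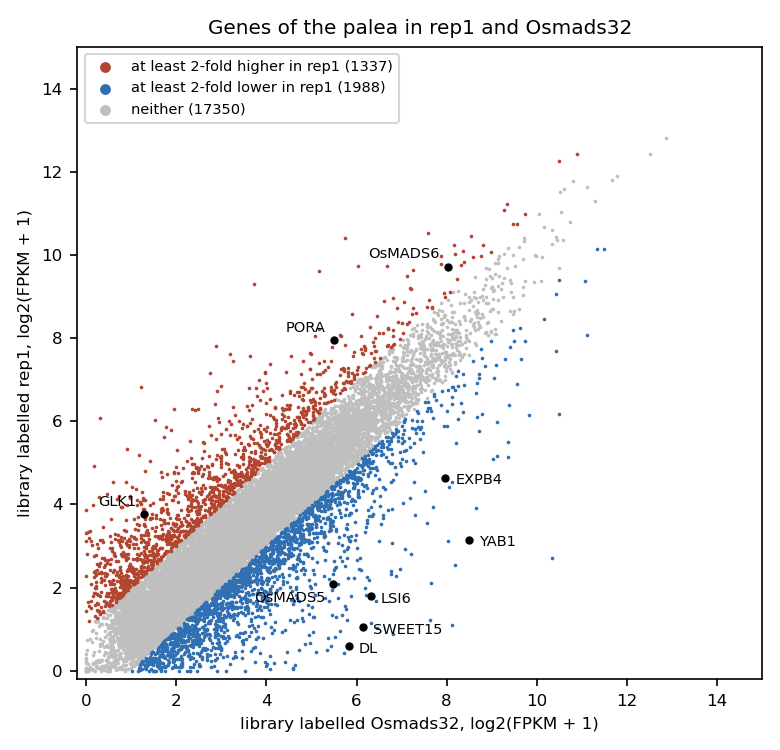
Level of 20675 genes in the library labelled rep1 (vertical axis) against the library labelled Osmads32 (horizontal axis), both as log2(FPKM + 1) of the mean of 2 runs. Red points are the 1337 genes past 2-fold upward in rep1, blue points the 1988 past 2-fold downward, grey points the others, and black points are named genes; YAB1, DL, LSI6 and SWEET15 lie far below the diagonal.

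**Figure D2:**
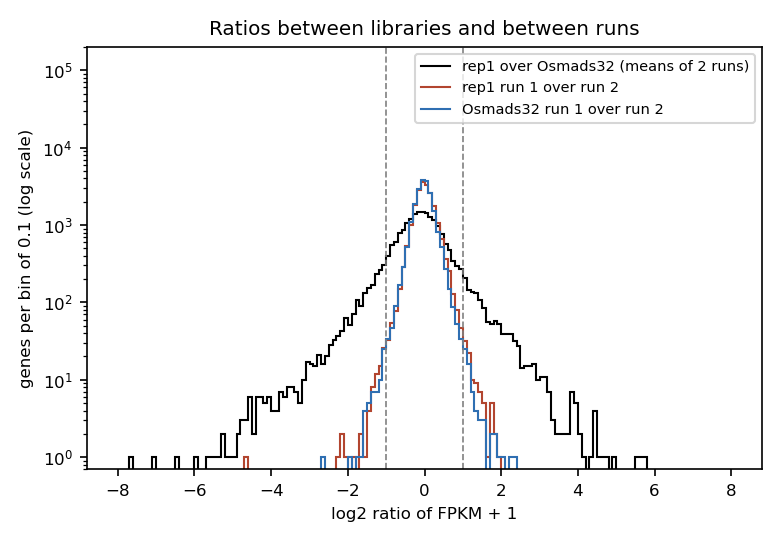
Number of genes (log scale) by log2 ratio of FPKM + 1, for rep1 over Osmads32 (black) and for run 1 over run 2 within rep1 (red) and within Osmads32 (blue). Dashed lines mark 2-fold, past which lie 3325 genes between the libraries, 168 between the rep1 runs and 128 between the Osmads32 runs.

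In most genes past 2-fold, the library labelled rep1 was the most extreme of the 4. Of the 1988 lower genes, rep1 was the lowest of the 4 libraries in 93.9%, against 41.1% of all measured genes. Of the 1337 higher genes it was the highest of the 4 in 85.6%, against 23.8% of all measured genes. Part of this is fixed by the choice of genes. In a gene chosen as lower in rep1, Osmads32 cannot be the lowest, and in one chosen as higher it cannot be the highest. The shares of all measured genes are thus not a like baseline for the chosen genes. The library labelled Osmads32 was the highest of the 4 in 37.1% of the lower genes and the lowest in 39.2% of the higher genes. Over all measured genes its shares were 18.4% and 17.5%, and the same choice of genes bears on this comparison. The library labelled Osmads6 was the highest in 52.2% of the lower genes and the lowest in 51.9% of the higher genes. Its shares over all measured genes were 35.6% and 29.1%. These are no like baseline either. By the choice of genes, rep1 cannot be the highest in a lower gene or the lowest in a higher one, which raises the shares of the other libraries.

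Floral MADS-box genes went both ways. OsMADS6 (LOC_Os02g45770, chromosome 2) had 826 and 858 FPKM in the runs of the library labelled rep1, against 257 and 266 FPKM in the library labelled Osmads32, and was 3.22-fold higher. It was the 1 measured member of 17 past 2-fold upward, beside 4 lower ones and a list median of 0.13, against 6.47% and 9.62% of all genes. OsMADS5 (LOC_Os06g06750), a SEPALLATA-like gene of floral meristem and outer organ identity, had 3.46 and 3.10 FPKM in rep1, against 47.7 and 39.8 FPKM in Osmads32, and was 13.3-fold lower. OsMADS15 (LOC_Os07g01820), an APETALA1-like gene, had 25.05 and 25.1 FPKM in rep1, against 80.6 and 86.2 FPKM in Osmads32, a 3.32-fold lower level. Runs of the libraries did not overlap in any of these 3 genes, and OsMADS32, above, is a further lower member.

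The C-class gene OsMADS58 (LOC_Os05g11414), which acts in carpel formation and floral determinacy, is the remaining lower member, with 1.73 and 1.13 FPKM in the library labelled rep1 and 6.0 and 6.12 FPKM in the library labelled Osmads32. Its partner OsMADS3 (LOC_Os01g10504), a stamen identity gene, stood the other way without passing 2-fold, at 14.8 FPKM in rep1 and 7.30 FPKM in Osmads32 (log2 ratio 0.92 on the scale of the calls), and passed it after median-ratio scaling (1.01) and without Osmads32 run 1 (1.02). The ovule identity gene OsMADS13 (LOC_Os12g10540) had 10.8 FPKM in rep1 and 18.5 FPKM in Osmads32. All 5 pistil and ovule markers, which include DL, OsMADS3, OsMADS13, OsMADS21 and OsMADS58, had reads in both libraries, and their summed level was 26.9 and 28.6 FPKM in the rep1 runs, against 87.0 and 92.4 FPKM in the Osmads32 runs. Most of that difference in the sum was DL, and the part of pistil tissue in these values was not tested. The B-class genes OsMADS2, OsMADS4 and OsMADS16, which specify lodicules and stamens, stood at 57.0, 11.3 and 102 FPKM in rep1, against 38.4, 7.21 and 88.5 FPKM in Osmads32. Their runs lay above those of Osmads32, as did those of 30.2% of all genes, by less than 2-fold.

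OsMADS1 (LOC_Os03g11614), a SEPALLATA-like factor for both bracts of the floret, had 249 and 337 FPKM in the rep1 runs, against 373 and 414 FPKM in the Osmads32 runs. OsMADS14, OsMADS17 and OsMADS18 differed by less than 1.5-fold. OsMADS7 (LOC_Os08g41950) overlapped between the libraries, at 57.6 FPKM in rep1 and 59.5 FPKM in Osmads32. Of the 4 measured SVP-like and SOC1-like MADS-box genes, which act before organ identity is set, 0 passed 2-fold, against 16.1% of all genes. With 4 members this count cannot be set apart from that share. Their median was 0.03, and -0.11 without Osmads32 run 2. OsMADS50, an SOC1-like gene, had 8.56 FPKM in rep1 and 6.34 FPKM in Osmads32, and OsMADS56 overlapped at 22.8 FPKM in rep1 and 21.2 FPKM in Osmads32.

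YABBY genes, transcription factors of lateral organ polarity and laminar growth, were lower in rep1 in 3 of 7 measured members, with none higher and a list median of -0.68, against 9.62% lower and 6.47% higher of all genes. With a pseudocount of 0.1 the median was -2.27, that of YAB5, which passed 2-fold on that scale at 0.0684 FPKM in rep1 and 0.712 FPKM in Osmads32. YAB1 (LOC_Os07g06620, chromosome 7) had 8.57 and 7.07 FPKM in the runs of the library labelled rep1, against 337 and 383 FPKM in the library labelled Osmads32. DROOPING LEAF (DL, LOC_Os03g11600, chromosome 3), required for carpel identity and the leaf midrib, had 0.617 and 0.381 FPKM in rep1, against 53.7 and 57.4 FPKM in Osmads32. Their levels were 46.1-fold lower for YAB1 and 111-fold lower for DL. The DL ratio rests on 24 and 14 reads in rep1 and carries counting bounds of 80.5-fold and 157-fold. YAB3 (LOC_Os10g36420) was 5.16-fold lower, at 1.52 FPKM in rep1 and 7.84 FPKM in Osmads32. Runs of all 7 members lay below those of Osmads32, a position held by 43.6% of all genes. The most abundant of the others, YAB2, was close to level at 86.8 FPKM in rep1 and 91.8 FPKM in Osmads32, and YAB6 stood at 36.2 FPKM in rep1 and 49.5 FPKM in Osmads32.

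Of 4 measured class I KNOX homeobox genes, which keep meristem cells undifferentiated, 1 was higher in the library labelled rep1 by 2-fold or more and 0 lower, against 6.47% and 9.62% of all genes, with a median of 0.84. OSH71 (LOC_Os05g03884) had 13.5 and 12.8 FPKM in the rep1 runs, against 2.31 and 2.63 FPKM in the Osmads32 runs, and was the member past 2-fold, by 5.30-fold. OSH43 (LOC_Os03g56110), the most abundant member, just missed that threshold (log2 ratio 0.98) at 73.1 FPKM in rep1 and 36.5 FPKM in Osmads32. OSH1 had 2.87 FPKM in rep1 and 1.37 FPKM in Osmads32, and the runs of OSH3 overlapped, at 2.79 and 2.08 FPKM in rep1, against 0.985 and 2.36 FPKM in Osmads32. With a pseudocount of 0.1, 3 of the 4 passed 2-fold, and without Osmads32 run 1, or after median-ratio scaling, 2 did.

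Of 6 measured TCP genes 2 were lower by 2-fold or more, of 6 HD-ZIP III and KANADI genes 2, and of 5 growth-regulating factors (GRF) 1, with 0 higher in each list, against 9.62% lower and 6.47% higher of all genes. The TCP genes PCF5 and PCF6, targets of the microRNA miR319, were 5.07-fold and 3.73-fold lower, at 0.675 and 1.35 FPKM in rep1, against 3.42 and 5.03 FPKM in Osmads32. PCF8, of the same class, passed 2-fold only without rep1 run 1 (-1.08) or with a pseudocount of 0.1 (-1.06). PCF7, also of that class, stood the other way without passing 2-fold, at 2.37 and 2.72 FPKM in rep1, against 1.77 and 1.04 FPKM in Osmads32. The HD-ZIP III gene HOX9 (LOC_Os10g33960) had 17.87 and 18.3 FPKM in rep1, against 48.3 and 51.3 FPKM in Osmads32. The KANADI gene SLL1 (LOC_Os09g23200), which specifies the abaxial side of leaves, had 0.329 and 0.174 FPKM in rep1, against 4.46 and 3.61 FPKM in Osmads32, with counting bounds of 9.49-fold and 28.9-fold lower. The other 4 members, HOX10, HOX29, HOX32 and HOX33, lay within 2-fold, HOX33 past it without rep1 run 2 (-1.05). The 5 GRF genes with checked locus IDs had negative ratios (median -0.61), whereas GRF9, with an unchecked one, had a ratio of 0.50. GRF6 (LOC_Os03g51970) passed 2-fold, at 2.73 and 3.27 FPKM in rep1, against 13.3 and 14.1 FPKM in Osmads32. GRF3 had 20.7 FPKM in rep1 and 32.1 FPKM in Osmads32.

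SPL genes, which time phase changes and shape panicle and grain, split 2 higher against 3 lower of 12, against 6.47% and 9.62% of all genes. SPL16 (LOC_Os08g41940), which promotes grain width, had 1.14 and 0.960 FPKM in the library labelled rep1, against 10.5 and 13.7 FPKM in the library labelled Osmads32. LIGULELESS1 (LG1, LOC_Os04g56170), needed for the ligule of the leaf, had 0.508 and 0.485 FPKM in rep1, against 6.60 and 6.82 FPKM in Osmads32. Both genes were more than 10-fold apart, with runs that did not overlap. SPL13 (LOC_Os07g32170), a grain length gene, was 2.05-fold lower, a call lost after median-ratio scaling (-0.92), without rep1 run 2 (-0.97) and without Osmads32 run 2 (-0.97). SPL2 and SPL4 were 2.58-fold and 2.39-fold higher in rep1, and SPL4 fell just under the threshold without rep1 run 1.

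STAMENLESS1 (SL1, LOC_Os01g03840), a zinc finger gene upstream of B-class genes, had 0.0532 and 0.449 FPKM in the rep1 runs, against 7.36 and 7.06 FPKM in the Osmads32 runs, 28.7-fold lower with counting bounds of 18.4-fold and 49.8-fold. It was measured and checked with 1 other gene of palea, floral organ and meristem identity, the floral organ number gene FON1, which stood at 4.48 FPKM in rep1 and 3.32 FPKM in Osmads32.

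**Figure D3:**
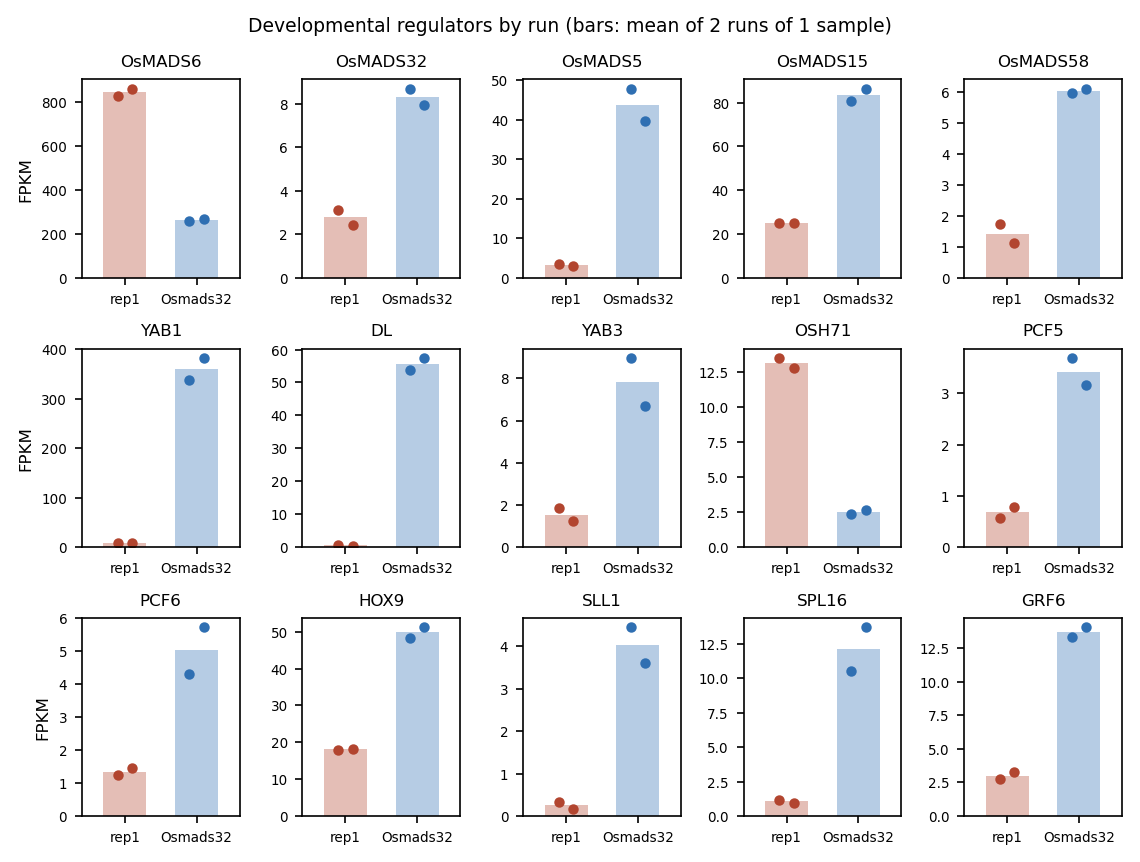
FPKM (vertical axes, each from 0) of 15 developmental regulators in the library labelled rep1 (red, left) and the library labelled Osmads32 (blue, right), with points for the 2 runs of 1 sample and bars for their mean. OsMADS6 and OSH71 stand higher in rep1, and the other 13 genes stand lower with runs that do not overlap.

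Of 7 measured genes of B-type cyclins, their kinases and DNA replication, 2 were lower in the library labelled rep1 by 2-fold or more and 0 higher, against 9.62% and 6.47% of all genes. The B-type cyclin gene CYCB2;1 (LOC_Os04g47580), of the entry into mitosis, had 0.463 and 0.245 FPKM in rep1, against 12.04 and 15.1 FPKM in Osmads32, 38.3-fold apart. CDKB1;1 (LOC_Os01g67160), a plant-specific cyclin-dependent kinase gene of the same step, had 2.41 and 3.52 FPKM in rep1, against 17.5 and 19.7 FPKM in Osmads32. They were the 2 members past 2-fold, and the list median was -0.87. With a pseudocount of 0.1, which weighs low genes more, 5 of 7 passed. PCNA, the sliding clamp of DNA replication, overlapped between the libraries at 12.2 FPKM in rep1 and 10.1 FPKM in Osmads32, and was the 1 member with a positive ratio.

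Cellulose synthases of the primary wall, laid down while cells expand, were lower by 2-fold or more in 4 of 6 members, against 9.62% of all genes, with a median of -1.27. Runs of all 6 lay below those of Osmads32, against 43.6% of all genes. CESA1 (LOC_Os05g08370) had 115 and 116 FPKM in the library labelled rep1, against 303 and 366 FPKM in the library labelled Osmads32. CESA6 (LOC_Os07g14850) had 54.5 and 48.9 FPKM in rep1, against 168 and 184 FPKM in Osmads32. CESA5 and CESA8 were 2.70-fold and 2.20-fold lower, while CESA2 and CESA3 were lower by less than 2-fold. Of the 3 secondary wall cellulose synthases, which thicken the wall once growth ends, 1 was higher by 2-fold or more, against 6.47% of all genes, and the median was 0.79. CESA9 (LOC_Os09g25490) had 488 and 471 FPKM in rep1, against 192 and 199 FPKM in Osmads32, 2.46-fold higher. CESA4 was at 1145 FPKM in rep1 and 660 FPKM in Osmads32, and CESA7 at 360.3 FPKM in rep1 and 244 FPKM in Osmads32, each short of 2-fold with runs that did not overlap.

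Genes of lignin synthesis and secondary wall assembly had a median of 0.99, with 3 of 7 checked members higher and 1 lower, against 6.47% and 9.62% of all genes. PAL1 (LOC_Os02g41630), a phenylalanine ammonia lyase at the entry of the phenylpropanoid pathway, had 5587 and 5442 FPKM in rep1, against 1854 and 1950 FPKM in Osmads32. The 4-coumarate ligase gene 4CL3 (LOC_Os02g08100) had 1060 and 952 FPKM in rep1, against 227 and 241 FPKM in Osmads32. These were 2.90-fold and 4.31-fold higher, and the cinnamyl alcohol dehydrogenase gene CAD2 (LOC_Os02g09490) was 2.31-fold higher. The methyltransferase gene COMT1 missed 2-fold at 2931 FPKM in rep1 and 1473 FPKM in Osmads32, and passed it after median-ratio scaling (1.09), without rep1 run 1 (1.01) and without Osmads32 run 1 (1.03). The lower member was 4CL5 (LOC_Os08g34790), a second 4-coumarate ligase gene, at 13.3 FPKM in rep1 and 27.8 FPKM in Osmads32. Its call was lost after that scaling (-0.92), without rep1 run 1 (-0.96) and without Osmads32 run 1 (-0.91). BC12, a kinesin gene of wall microfibril order, had 59.9 FPKM in rep1 and 39.4 FPKM in Osmads32. With 13 measured members, 6 of them with unchecked locus IDs, the list median was 0.22. Among 10 further lignin and xylan genes, 1 was higher and 2 were lower, against the same shares of all genes, with a median of -0.47. The lower ones were AT10, an acyltransferase gene, and IRX9, a xylan synthesis gene, 12.8-fold and 3.45-fold lower.

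Expansins loosen the wall during growth, and in the library labelled rep1 5 of 7 measured members were lower by 2-fold or more, against 9.62% of all genes, with 0 higher and a median of -1.86. EXPB4 (LOC_Os10g40730) had 25.3 and 22.5 FPKM in rep1, against 244 and 251 FPKM in Osmads32. EXPA2 (LOC_Os01g60770) had 23.1 and 21.6 FPKM in rep1, against 141 and 166 FPKM in Osmads32. They were 10.4-fold and 6.86-fold lower, and EXPA4, EXPA5 and EXPA1 were the other 3. EXPA10 and EXPB3 missed the threshold at 7.67 and 127 FPKM in rep1, against 14.8 and 195 FPKM in Osmads32. The silicon channel gene LSI6 (LOC_Os06g12310), which unloads silicon toward the husk, had 2.71 and 2.19 FPKM in rep1, against 74.7 and 82.2 FPKM in Osmads32, and was 32.0-fold lower. It was the 1 silicon transporter gene measured.

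Jasmonate genes had the most members past 2-fold, 9 of 13 lower and 1 higher, with a median of -1.72, against 9.62% and 6.47% of all genes. Jasmonate is made from lipids by AOS, AOC and OPR enzymes, is sensed by COI1 receptors, and leads to the breakdown of JAZ repressors, whose TIFY genes are among its own targets. TIFY10C (LOC_Os09g26780) had 11.8 and 12.7 FPKM in the library labelled rep1, against 78.7 and 73.7 FPKM in the library labelled Osmads32. TIFY11B (LOC_Os03g08330) had 35.4 and 28.9 FPKM in rep1, against 134 and 139 FPKM in Osmads32. They were 6.23-fold and 4.25-fold lower, and TIFY11A, TIFY11D and TIFY10A were between 3.07-fold and 4.02-fold lower. The other 2 measured members of the family in this list, TIFY11C and TIFY10B, missed 2-fold, TIFY10B past it without rep1 run 2 (-1.06).

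Synthesis genes lay on the same side as the repressors. AOC (LOC_Os03g32314) was 3.51-fold lower at 31.0 FPKM in rep1 and 109 FPKM in Osmads32, AOS1 3.56-fold lower, and OPR7 2.08-fold lower, a call lost without rep1 run 2 (-0.97) and after median-ratio scaling (-0.95). AOS2 gave 2 and 3 reads in the rep1 runs, against 124 and 127 reads in the Osmads32 runs, 44.3-fold lower with counting bounds of 18.9-fold and 139-fold. The receptor genes parted: COI1B (LOC_Os05g37690) had 127 and 141 FPKM in rep1, against 59.5 and 61.7 FPKM in Osmads32, whereas COI1A (LOC_Os01g63420) had 75.7 and 86.6 FPKM in rep1, against 145 and 144 FPKM in Osmads32. COI1B was 2.21-fold higher, and COI1A missed 2-fold.

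Among chlorophyll synthesis and GLK genes, 3 of 9 checked members were higher by 2-fold or more and 0 lower, against 6.47% and 9.62% of all genes, with a median of 0.24. With 4 members of unchecked locus ID added, 5 of 13 were higher and the median was 0.81, and without rep1 run 1 the median of the 9 was 0.08. PORA (LOC_Os04g58200), a protochlorophyllide reductase, had 274 and 217 FPKM in rep1, against 43.3 and 44.7 FPKM in Osmads32. GLK1 (LOC_Os06g24070), which drives chloroplast development, had 13.5 and 11.8 FPKM in rep1, against 1.29 and 1.59 FPKM in Osmads32. They were 5.57-fold and 8.78-fold higher, and CHLH, a subunit of magnesium chelatase, was 2.55-fold higher. YGL1 and CHLD stood lower without passing 2-fold. The light-harvesting gene CAB1R (LOC_Os09g17740) had 571 and 518 FPKM in rep1, against 253 and 236 FPKM in Osmads32, while CAB2R, at 1355 FPKM in rep1 and 841 FPKM in Osmads32, missed 2-fold. The summed level of these 2 green tissue markers was 1907 and 1892 FPKM in the rep1 runs, against 1054 and 1117 FPKM in the Osmads32 runs. Their part in the other differences was not tested.

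**Figure D4:**
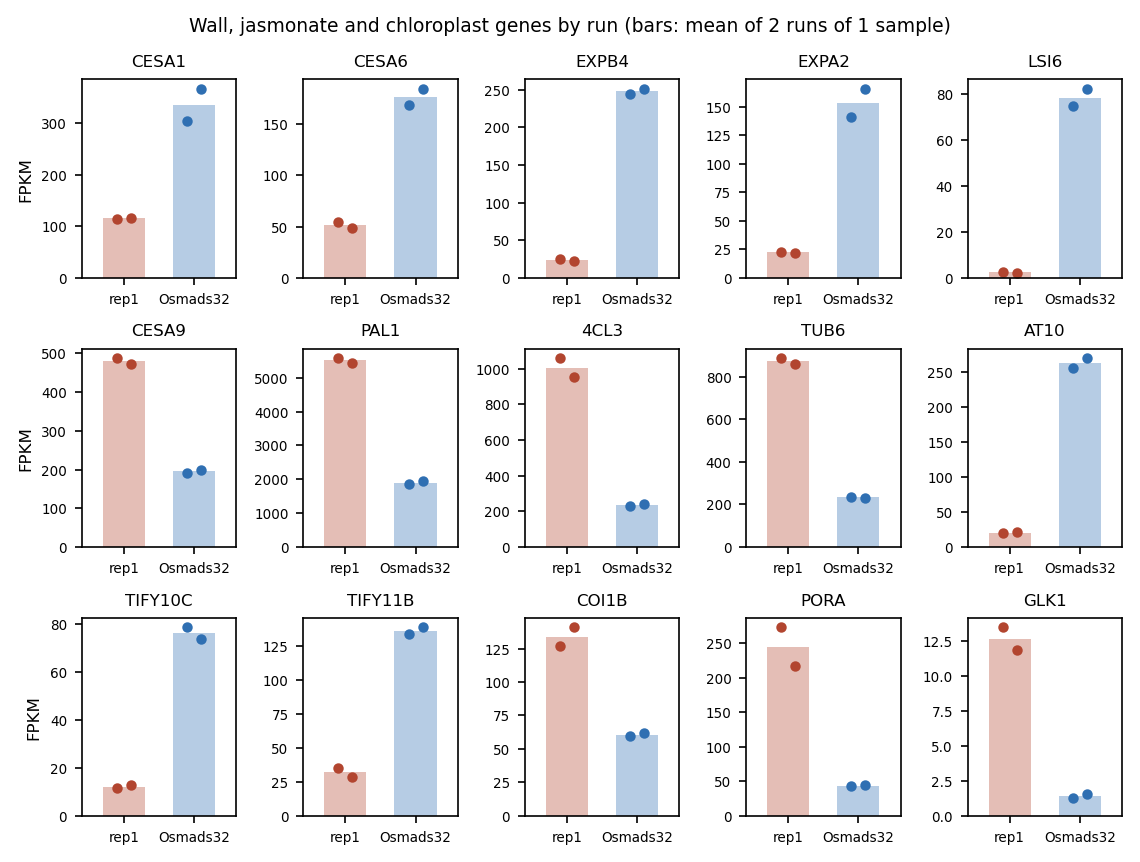
FPKM (vertical axes, each from 0) of 15 wall, jasmonate and chloroplast genes in the library labelled rep1 (red, left) and the library labelled Osmads32 (blue, right), with points for the 2 runs of 1 sample and bars for their mean. CESA9, PAL1, 4CL3, TUB6, COI1B, PORA and GLK1 stand higher in rep1, and the other 8 genes stand lower.

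Anther and tapetum genes went both ways around a median of -0.10. Past 2-fold was 1 of 11 measured members, against 16.1% of all genes, a share this count cannot be set apart from. Runs of 4 members lay above those of Osmads32 and runs of 4 below, against 30.2% and 43.6% of all genes. The member past 2-fold was RTS (LOC_Os01g70440), a tapetum gene, with 188 and 179 FPKM in rep1 and 83.9 and 98.3 FPKM in Osmads32. It was at the threshold, and under it without rep1 run 1 (0.97) or Osmads32 run 1 (0.89). UDT1, a regulator of tapetum development, stood at 3.80 FPKM in rep1 and 7.89 FPKM in Osmads32, short of 2-fold on the scale of the calls (-0.89) and past it without Osmads32 run 2 (-1.04). MSP1, a receptor kinase gene that limits sporogenous cells, had 3.50 FPKM in rep1 and 6.35 FPKM in Osmads32, and the tapetum gene RAFTIN1 had 20.9 FPKM in rep1 and 15.9 FPKM in Osmads32. Of the 12 checked stamen and tapetum markers, 10 were at 1 FPKM or more in each library and 0 were at 0. Their summed level was 482 and 451 FPKM in the rep1 runs, against 320.4 and 343 FPKM in the Osmads32 runs. Most of that difference in the sum was RTS, and OsMADS2 and OsMADS16 are also counted as lodicule markers. By mean level, UDT1, CYP703A3, EAT1 and TDR stood lower in rep1 and the others higher. The summed level of the 3 meristem markers was 17.2 and 16.5 FPKM in the rep1 runs and 4.64 and 3.97 FPKM in the Osmads32 runs, most of it OSH71. That of the lodicule markers was 998 and 1004 FPKM in rep1, against 386 and 391 FPKM in Osmads32, most of it OsMADS6.

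The gibberellin, brassinosteroid, auxin transport and synthesis, ROC and grain size lists each had 0 or 1 checked member past 2-fold. With so few members, these counts cannot be set apart from the 16.1% of all genes. Of 6 gibberellin genes, 0 passed 2-fold, and their median was -0.03. The receptor gene GID1 had 22.6 FPKM in rep1 and 29.9 FPKM in Osmads32, the DELLA repressor gene SLR1 19.1 FPKM in rep1 and 23.9 FPKM in Osmads32, and the F-box gene GID2 246 FPKM in rep1 and 208 FPKM in Osmads32. In the brassinosteroid list BRD1 (LOC_Os03g40540), an oxidase of the last synthesis steps, was 2.17-fold lower in rep1 at 6.38 FPKM, against 13.9 FPKM in Osmads32, a call lost after median-ratio scaling (-0.92), without rep1 run 1 (-0.97) and without Osmads32 run 1 (-0.98). It was the 1 of 5 past 2-fold. The receptor gene BRI1 had a log2 ratio of -0.32, and the synthesis genes D11 and D2 had 16.1 and 21.9 FPKM in rep1, against 17.0 and 15.6 FPKM in Osmads32. TAA1, an auxin synthesis gene, lay within 2-fold, at 7.85 FPKM in rep1 and 11.2 FPKM in Osmads32. The ROC homeobox genes of the epidermis had 1 of 8 lower, ROC5 (LOC_Os02g45250), at 5.97 and 5.13 FPKM in rep1, against 14.5 and 12.7 FPKM in Osmads32. ROC1, ROC2 and ROC3 had 15.04, 8.42 and 4.45 FPKM in rep1, against 11.2, 9.66 and 6.45 FPKM in Osmads32. Among grain and hull size genes, GIF1 (LOC_Os04g33740), a cell wall invertase of grain filling, was the 1 of 5 checked members past 2-fold, 5.01-fold higher, at 25.7 and 23.4 FPKM in rep1, against 5.04 and 4.75 FPKM in Osmads32. GW2, D1 and SRS3 differed by less than 1.5-fold. The actin gene ACT1 (LOC_Os03g50885), often used to normalise measurements, had 207 and 229.9 FPKM in rep1, against 712 and 632 FPKM in Osmads32.

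**Figure D5:**
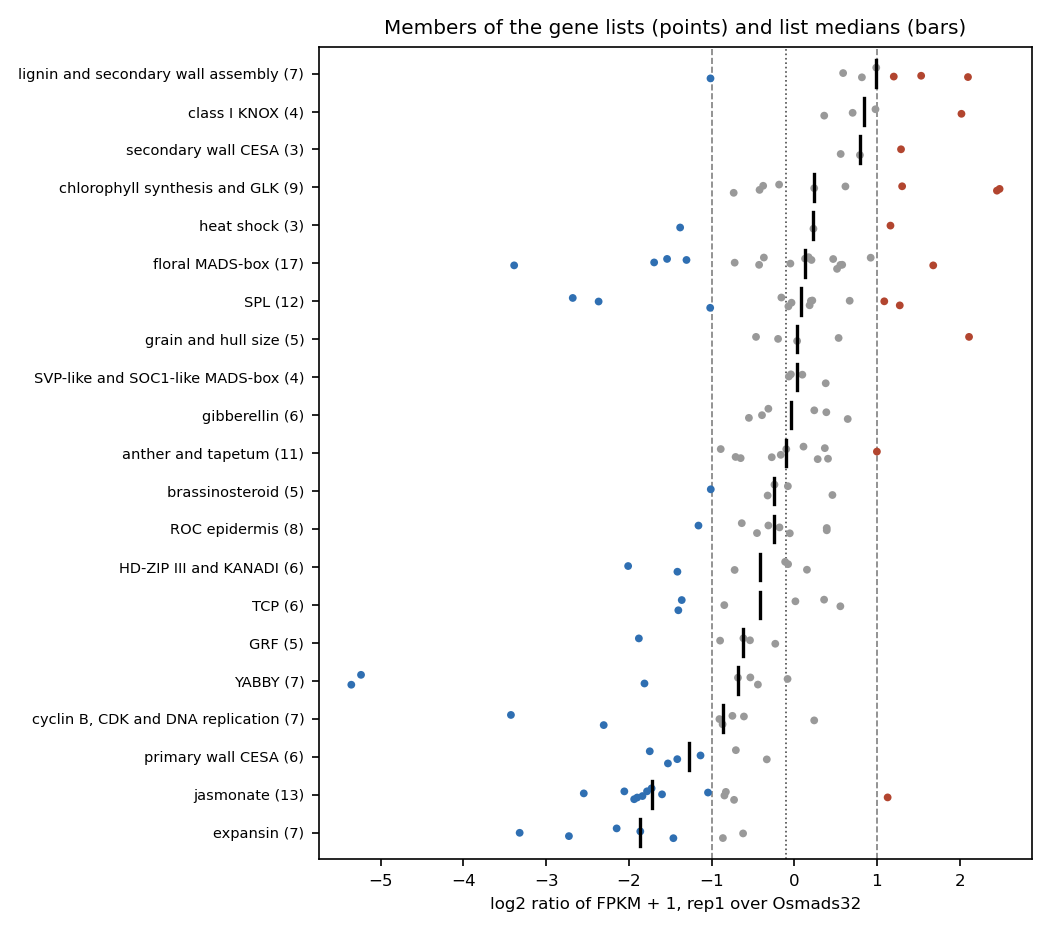
Log2 ratio of FPKM + 1, rep1 over Osmads32 (horizontal axis), of the checked measured members of each gene list with 3 or more of them (points, number in brackets), ordered by list median (black bars). Red and blue points lie past 2-fold upward and downward in rep1, dashed lines mark 2-fold and the dotted line marks the median of all genes, -0.10; the lists of expansins, jasmonate and primary wall cellulose synthases lie lowest, with medians of -1.86, -1.72 and -1.27.

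Outside the lists, the 2 genes each way with the largest log2 ratio of FPKM + 1 and runs that did not overlap are given by locus ID. LOC_Os11g47500 (chromosome 11) had 77.8 and 54.6 FPKM in the library labelled rep1, against 0.364 and 0.106 FPKM in the library labelled Osmads32. LOC_Os03g08460 (chromosome 3) had 109 and 116 FPKM in rep1, against 1.38 and 1.29 FPKM in Osmads32. Downward, LOC_Os10g05930 had 3.83 and 7.32 FPKM in rep1, against 1265 and 1334 FPKM in Osmads32, and LOC_Os10g05820 had 1.14 and 1.15 FPKM in rep1, against 282 and 268 FPKM in Osmads32. The files give these IDs no name. Of the 25 genes each way with the largest ratios, 0 of the higher and 4 of the lower ones, YAB1, DL, SWEET15 and LSI6, were in a list.

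Over all genes of the table, 3698 had no reads in rep1 and some in Osmads32, and 4676 had none in Osmads32 and some in rep1. Among the 20675 genes these numbered 27 at 0 in rep1 and 13 at 0 in Osmads32, and over all genes 32 at 0 in rep1 and 32 at 0 in Osmads32 reached 1 FPKM or more in the other library. Of the measured ones, 3 that were at 0 in rep1 reached at least 5 FPKM in Osmads32, and 3 that were at 0 in Osmads32 reached at least 5 FPKM in rep1. Such genes can have passed the mean that chose the genes through the other library alone. At a floor of 3 reads over both runs of a library, they were at least 193.8-fold, 110.3-fold and 23.9-fold lower, and at least 265.8-fold, 152.6-fold and 22.4-fold higher, in rep1. This floor and the intervals above cover counting error only.

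Locus IDs run in order along a chromosome, which let genes past 2-fold be placed without coordinates. Their share was similar on the 12 chromosomes, from 5.79% to 7.81% for higher genes and from 8.49% to 10.7% for lower genes. In 20421 windows of 20 consecutive measured genes, the most lower genes in a window was 11, on chromosome 10, where the pair of strongly lower IDs above lie. In the stretch around them 10 of 17 measured genes were lower, 9 of them by at least 4-fold, against 9.62% and 2.03% of all genes. The bounds of this stretch were fixed by hand around these low genes, so its counts are description only. Around the locus taken as REP1, 20 measured genes on each side held 2 higher and 2 lower genes, 4 of 40 against 16.1% of all genes, with a median log2 ratio of -0.06, and the least of them still had 1 read over both runs of the library labelled rep1.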

How the data were processed

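RNA from rice paleas was sequenced in 4 samples, 1 per genotype. The deposited table, made by the authors, holds FPKM values for 55986 genes in 8 columns, 2 per genotype. Per the submitters' processing notes the genome build is IRGSP 1.0; no source used here gives the aligner, counter or annotation. The IDs are LOC_Os loci.

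Each gene's FPKM was averaged over its 2 runs, and log2((rep1 + 1)/(Osmads32 + 1)) was called at 2-fold, for genes with a mean of 1 FPKM or more over the genotype means. With n = 1 no test was possible. Reads were recovered as whole multiples within 0.02 reads for 44686 genes (99.9% of those above 0), so that only ratios between runs are fixed for each gene, and 27 genes gave none. Counting intervals are exact Clopper-Pearson at 95%. Paralogs (MADS-box, tubulin, actin, light-harvesting, heat shock, cellulose synthase) can share reads. Python 3.11.15, pandas 2.3.3 and scipy 1.17.1 were used. The calls and the recovery of reads were tried on data simulated with counting error and 4-fold changes only. That simulation held no spread between samples, so it cannot vouch for 2-fold calls between single samples.

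Symbols were paired with loci from published rice nomenclature as known, in 26 lists and 11 later ones. A pair passed when RefSeq (assembly ASM3414082v1) placed the symbol on the chromosome named in the locus ID, in an order shared with 90% or more of that chromosome's pairs. This held for 338 of 392 pairs, 47 symbols were absent and 7 were on another chromosome only. Lists hold checked pairs plus OsMADS32, OsMADS6 and REP1. The result for 1 named gene is not reported here. Wrong pairs of near neighbours can pass. The members and lists were chosen with earlier results of these data known, and the themes of the 11 later lists after values of the first were seen. Named are the 3 mutated genes of the series, each member past 2-fold of the floral MADS-box, YABBY, KNOX, TCP, polarity, cellulose synthase and cyclin lists, of the other lists the 2 highest and 2 lowest of 5 FPKM or more, and up to 2 loci each way outside them; further members were chosen after their values were seen. The alternatives were another pseudocount, filter, scaling, threshold or list membership, and leaving out each run.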

Additional observations from a re-analysis of the deposited data

How the results depend on the processing

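No paired analysis was possible because the labels give no replicate numbers and each genotype has 1 sample. Of 486 counts recomputed under the alternatives, 452 stayed within 1.5 times, and among 279 single genes 0 reversed a call. With a pseudocount of 0.1, members higher in rep1 numbered 2 floral MADS-box, 3 KNOX and 1 gibberellin (1, 1 and 0 otherwise). On that scale members lower numbered 2 GRF, 5 cyclin, CDK or DNA replication, 2 anther and 1 gibberellin (1, 2, 0 and 0 otherwise). With genes averaging 5 FPKM or more, 888 genes were higher of 13877, 0 TCP genes were lower of 1 and 1 HD-ZIP or KANADI gene of 4, fewer genes being tested. Median-ratio scaling moved the median of all genes to -0.02 and gave 2 higher floral MADS-box and 2 higher KNOX genes, and 0 lower lignin and brassinosteroid genes. The list median of cyclin, CDK and DNA replication genes reached -1.62 with a pseudocount of 0.1. Above 5 FPKM the medians of YABBY, KNOX and GRF genes were -1.81, 1.503 and -1.25. At 4-fold, 313 genes were higher and 420 lower.

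With unchecked pairs included, lower genes numbered 2 in the ROC epidermis list (ROC5 and ONI1), 1 in grain size and 1 in gibberellin. Higher ones numbered 5 chlorophyll and 1 gibberellin. The median of palea, floral organ and meristem identity genes turned to 0.0066 over 6 members, against -1.19 over 2. Leaving out 1 run at a time gave between 1 and 2 higher floral MADS-box, KNOX and SPL genes and lower ROC genes, and between 0 and 1 lower lignin, brassinosteroid and anther genes and higher anther and heat shock genes. The genes behind these changes were OsMADS3, OSH43, SPL4, ROC8, 4CL5, BRD1, UDT1, RTS and HSP17.4. BC1, a wall assembly gene, passed 2-fold without Osmads32 run 2 (1.11), and ROC8 passed it without Osmads32 run 1 (-1.03). The medians of the gibberellin, grain size, anther, SPL and SVP-like lists lay near 0 and changed sign under 1 or more alternatives, as did those of the TCP (0.36) and heat shock (-0.11) lists above 5 FPKM. Beyond the settings' own construction, the cause was not tested. With 1 sample per genotype, depth bounds counting error only, and differences between plants, backgrounds or stages cannot be told apart from the mutations.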

Other observations

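Further gene families, whose themes were chosen after other values of these libraries had been seen, gave the following levels. Of 10 further expansins 6 were lower in the library labelled rep1 and 1 was higher, with a median of -1.26. All counts here stand against 9.62% lower and 6.47% higher of all genes. EXPA16 had 3.25 FPKM in rep1 and 46.9 FPKM in Osmads32, and EXPA7 had 7.69 FPKM in rep1 and 57.1 FPKM in Osmads32. The expansin-like gene EXLA1 stood the other way, at 61.4 FPKM in rep1 and 11.5 FPKM in Osmads32, and EXLA3 had 3.85 FPKM in rep1 and 10.4 FPKM in Osmads32. Aux/IAA genes, which encode repressors of auxin response, were lower in 6 of 21 measured members and higher in 0, with a median of -0.72. IAA13 had 23.4 FPKM in rep1 and 89.2 FPKM in Osmads32, and IAA30 had 17.0 FPKM in rep1 and 49.8 FPKM in Osmads32. Short of 2-fold, IAA3 had 479 FPKM in rep1 and 260.0 FPKM in Osmads32, and IAA23 had 7.78 FPKM in rep1 and 5.90 FPKM in Osmads32. Of 8 further jasmonate genes 2 were lower, the lipoxygenase gene CM-LOX2 at 0.316 FPKM in rep1 and 5.42 FPKM in Osmads32, and TIFY11E at 3.49 FPKM in rep1 and 13.9 FPKM in Osmads32. COI2 and NINJA overlapped between the libraries, and without rep1 run 1 JAZ1 was a further lower gene (-1.10). Of 8 A-type and D-type cyclin and KRP genes 1 was lower, CYCD4;1, a call lost after median-ratio scaling (-0.93), without rep1 run 2 (-0.84) and without Osmads32 run 2 (-0.97). CYCD4;2 was short of 2-fold on the scale of the calls (-0.91) and past it with a pseudocount of 0.1 (-1.01) and without rep1 run 2 (-1.05), and CYCD5;3 and CYCA1;4 lay within 2-fold. CYCD6;1 passed 2-fold with that pseudocount (-1.03) and CYCD3;1 without rep1 run 1 (-1.12), so that 3 of the 8 were lower with the pseudocount, 2 without rep1 run 1 and 0 after scaling or without Osmads32 run 2.

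Among 10 further lignin and xylan genes, the acyltransferase gene AT10 was 12.8-fold lower, at 20.6 FPKM in rep1 and 263 FPKM in Osmads32. IRX9, a xylan synthesis gene, had 18.6 FPKM in rep1 and 64.3 FPKM in Osmads32, while 4CL1 had 35.9 FPKM in rep1 and 14.5 FPKM in Osmads32, and 4CL4, short of 2-fold, 72.5 FPKM in rep1 and 43.5 FPKM in Osmads32. Tubulin and actin genes, of the cytoskeleton, went both ways, with 1 of 13 higher and 4 lower. TUB6 had 889 and 861 FPKM in the rep1 runs, against 237 and 229 FPKM in the Osmads32 runs. ACT3 had 140 FPKM in rep1 and 420.4 FPKM in Osmads32, while ACT7, short of 2-fold, had 217 FPKM in rep1 and 138 FPKM in Osmads32. Of 8 further housekeeping genes, 1 was higher and 1 lower: the glycolytic genes GAPC3, at 207 FPKM in rep1 and 84.6 FPKM in Osmads32, and GAPC2, at 180.4 FPKM in rep1 and 627 FPKM in Osmads32. UBC5B and GOS2 lay within 2-fold, at 43.6 and 1299 FPKM in rep1, against 76.1 and 844 FPKM in Osmads32.

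The sugar exporter gene SWEET15 had 1.28 and 0.852 FPKM in the rep1 runs, against 68.7 and 69.8 FPKM in the Osmads32 runs, and was 65.1-fold lower. The sucrose synthase gene RSUS1 had 1132 FPKM in rep1 and 2897 FPKM in Osmads32, whereas the sucrose transporter gene SUT1 had 22.6 FPKM in rep1 and 7.93 FPKM in Osmads32, and SWEET16 had 15.7 FPKM in rep1 and 4.99 FPKM in Osmads32. Their list of 14 held 3 higher and 3 lower genes, with a median of 0.03. Of 12 aquaporin genes 1 was lower, PIP2-6 at 112 FPKM in rep1 and 283 FPKM in Osmads32, and 1 higher, PIP2-4, a call lost without rep1 run 1 (0.68) and without Osmads32 run 1 (0.98). PIP1-3 passed 2-fold upward with a pseudocount of 0.1 (1.20), without rep1 run 2 (1.07) and without Osmads32 run 1 (1.02), and PIP2-1, PIP2-2 and PIP2-7 lay within 2-fold. Of 11 further photosynthesis genes 1 was higher, RCABP89 at 391 FPKM in rep1 and 159 FPKM in Osmads32, and 1 lower, FBPase at 13.6 FPKM in rep1 and 34.5 FPKM in Osmads32. TPT lay within 2-fold. CHLP was short of it on the scale of the calls (0.98) and past it after median-ratio scaling (1.07), with a pseudocount of 0.1 (1.01), without rep1 run 2 (1.04) and without Osmads32 run 2 (1.09).

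Small heat shock protein genes, induced by heat and other stress, went both ways. Of 7 in the later list 3 were higher and 2 lower, with a median of 0.66. HSP16.9B had 13.6 FPKM in rep1 and 75.0 FPKM in Osmads32, and HSP18.1 had 7.82 FPKM in rep1 and 2.50 FPKM in Osmads32. HSP17.9A was also higher, at 34.98 FPKM in rep1 and 13.6 FPKM in Osmads32, and HSP18.0 was short of 2-fold. The other lower gene, HSP16.9C, had 1.76 FPKM in rep1 and 4.59 FPKM in Osmads32, a call lost after median-ratio scaling (-0.95), without rep1 run 2 (-0.98) and without Osmads32 run 1 (-0.97). In the first heat shock list of 3, HSP17.4 was higher, a call lost without rep1 run 1 (0.90) and without Osmads32 run 1 (0.94), and HSP16.9A was lower, at 7.35 and 5.32 FPKM in the rep1 runs, against 16.0 and 20.2 FPKM in the Osmads32 runs.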
